A study of Mus musculus with 8 samples.

Results

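The RNA of 10 genes of sterol efflux and lipoprotein handling was followed in mouse Kupffer cells, which are the liver's resident macrophages, after sorting. The genes were picked by symbol, as known targets of the liver X receptors (LXR) or genes of the same lipid traffic, and all 10 were found among the 56691 genes of the deposited table. They were the apolipoprotein genes Apoe, Apoc1 and Apoc2, the exporter genes Abca1 and Abcg1, the ubiquitin ligase gene Mylip, the lipase and transfer protein genes Lpl and Pltp, and the enzyme genes Scd2 and Lpcat3. The study set 4 libraries from Vsig4-/- mice (KO) against 4 libraries from WT mice. All mice had received B16F10 cells, a mouse melanoma line, 7 days before, and all livers carried its metastases. DAPI-negative cells positive for CD45 and Tim-4 were sorted from the digested livers as Kupffer cells. The labels used here give no mouse age or sex, and do not say whether a library came from 1 mouse or several, so p-values measure the spread between libraries, which may be technical.

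LXRα and LXRβ are nuclear receptors that bind oxysterols and act as dimers with RXR. In macrophages they raise genes that export cholesterol to lipoproteins and limit its uptake, and in Kupffer cells LXRα is also part of the program that maintains the cells' identity. VSIG4, the protein targeted in KO mice, is a complement receptor of resident macrophages.

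The libraries held between 15264043 and 19513844 counts. Levels are CPM, counts scaled to a library of fixed size with TMM, unless given as FPKM. Each log2 fold change is given as KO minus WT, with its standard error. Vsig4 itself stood at 0.501, 0.306, 0.111 and 0.210 CPM in KO libraries 1 to 4, against 2890, 2625, 1392 and 1639 CPM in WT libraries 1 to 4, as the labels say. All 12 Kupffer markers were detected in every library, and their sum was 7543 to 23156 CPM in KO and 19287 to 33884 CPM in WT. RNA of other cells was present as well. The sum of 10 melanoma markers was 2493, 3552, 12245 and 6368 CPM in KO libraries 1 to 4, against 561.5, 495.4, 5455 and 4698 CPM in WT libraries 1 to 4. The sum of 14 hepatocyte markers was 1109 to 1703 CPM in KO and 1758 to 3324 CPM in WT, without overlap between the genotypes. Their mean log2 CPM, the hepatocyte marker level used as a covariate below, did overlap, at 3.75 to 5.42 in KO and 4.64 to 6.65 in WT. The sum of 10 stellate cell and fibroblast markers was 84.5 to 147 CPM in KO and 204 to 306 CPM in WT, also without overlap. KO library 3 held the most melanoma RNA and the least Kupffer RNA by these markers, and WT libraries 1 and 2 held the least melanoma RNA. No marker of these lists was at 0 in all libraries.

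Scaled to the deposited exonic size of each gene, Apoe was the most abundant of the 10 genes, with 2914 ± 886 FPKM in KO and 4240 ± 858 FPKM in WT (SD, n = 4 each, as for all values with ± below). Apoc1 came next, at 443 ± 172 FPKM in KO and 726.5 ± 136 FPKM in WT. Pltp followed at 211 ± 74.1 FPKM in KO and 257 ± 43.7 FPKM in WT. In every library of both genotypes the level of Apoe was above that of Apoc1, and that of Apoc1 above that of Pltp. Scd2 averaged 93.4 ± 43.0 FPKM in KO, beside 91.5 ± 45.8 FPKM for Lpl, and each was the higher of the pair in 2 KO libraries. In WT, Scd2 averaged 48.8 ± 23.0 FPKM, below the 123 ± 52.5 FPKM of Lpl, and the ranges overlapped. Abca1, Mylip, Abcg1 and Lpcat3 then stood in this order in both genotypes, with mean levels between 34.7 and 17.5 FPKM in KO and between 43.9 and 15.6 FPKM in WT. Among these 4 neighbours the ranges overlapped, except for Abcg1 and Lpcat3 in WT, where Abcg1 was higher in every library. Apoc2 was last, at 0.0825 ± 0.0995 FPKM in KO and 0.22 ± 0.0408 FPKM in WT.

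**Figure D1:**
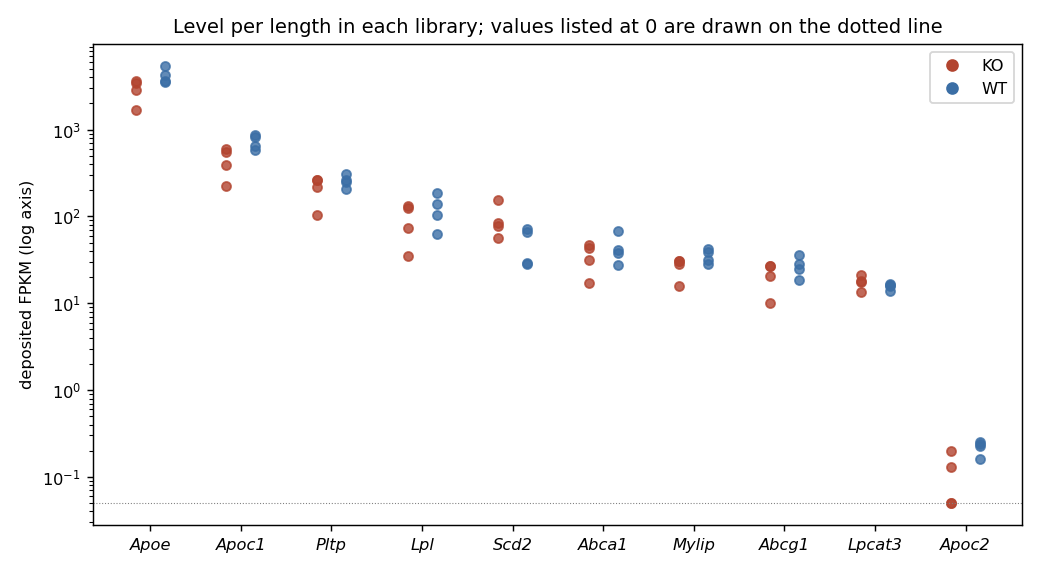
Deposited FPKM of the 10 genes in every library on a log axis, with KO to the left of WT for each gene. Apoe lay above all others in each library, Apoc2 stayed below 1 FPKM with its values of 0 drawn on the dotted line, and most neighbours between Scd2 and Lpcat3 overlapped.

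Apoe encodes the apolipoprotein that binds receptors of the LDL receptor family and takes up cholesterol from exporters. The table placed it at chr7:19430034-19433113 on the minus strand, in coordinates for which it names no build. Apoe had 7845, 7421, 3371 and 5765 CPM in KO libraries 1 to 4, against 12608, 10056, 7422 and 7718 CPM in WT libraries 1 to 4. KO library 3 was far below all others, and the genotypes met at 7421 to 7845 CPM, where KO library 1 exceeded WT libraries 3 and 4. The log2 fold change was -0.63 ± 0.358, and the gene was not called in edgeR's quasi-likelihood test (adjusted p = 0.492). With the library number as a block it was called lower, at -0.67 ± 0.182 (adjusted p = 0.0489, edgeR). The labels do not say what a number shares, and this pairing was read from the same data. In each genotype, libraries 1 and 2 held less melanoma RNA than libraries 3 and 4. Blocked calls and paired comparisons below share this limit. A lower value in a bulk sample can come from fewer cells that express a gene or from less of its RNA per cell, and these cannot be told apart. Hepatocytes also make Apoe, so the hepatocyte gene Alb is given beside it. Alb was 168, 110, 449 and 446 CPM in KO libraries 1 to 4, against 403, 302, 1348 and 404 CPM in WT libraries 1 to 4. WT library 3 had the highest Alb and the lowest Apoe of the WT libraries. It also had the highest melanoma sum (5455 CPM) and the lowest Kupffer sum (19287 CPM) of the WT libraries. Its values therefore do not tell how much Apoe came from hepatocytes.

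Apoc1, which encodes a small exchangeable apolipoprotein and lies beside Apoe (chr7:19423406-19426585, minus strand, as deposited), had 421, 445, 157 and 270 CPM in KO libraries 1 to 4, against 701, 661, 421 and 472 CPM in WT libraries 1 to 4. Its libraries ranked almost as those of Apoe did, with KO library 3 lowest, and the groups overlapped where KO library 2 exceeded WT library 3. At -0.80 ± 0.333 it had the largest negative log2 fold change of the 9 genes tested (unadjusted p = 0.0408, adjusted p = 0.492, edgeR). It was called lower with the library number as a block (-0.88 ± 0.150, adjusted p = 0.0254, edgeR). The counts of Apoe per count of Apoc1 were 18.6, 16.7, 21.4 and 21.3 in KO libraries 1 to 4, against 18.0, 15.2, 17.6 and 16.4 in WT libraries 1 to 4. The ratio thus averaged 19.5 ± 2.29 in KO and 16.8 ± 1.27 in WT, with overlapping ranges (2-sided exact permutation p = 0.114 over 70 splits, adjusted p = 0.214 over 3 ratios chosen after the data were seen). It was higher in KO in all 4 same-numbered pairs (2-sided exact permutation within pairs p = 0.125, the smallest that 4 pairs allow).

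Apoc2 encodes the activator of lipoprotein lipase and belongs to the same gene cluster (chr7:19405504-19411866, minus strand, as deposited). It had 3, 2, 0 and 0 counts in KO libraries 1 to 4, against 3, 4, 3 and 2 counts in WT libraries 1 to 4. No library exceeded 4 counts, near the 3 counts that a count of 0 allows, the gene did not pass the filter on low counts, and no fold is given. In GENCODE M21 on GRCm38, 79.5% of its exonic bases are shared with a read-through gene on the same strand, Gm44805, which the table lists as Apoc2l with 0 or 1 count per library. Reads in such shared bases may be left out of both genes by the counting, whose mode is not given in the sources used here. Its low value is therefore no measure of how much Apoc2 RNA the cells held.

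Abca1 and Abcg1 encode the membrane exporters that load cholesterol and phospholipid onto lipid-poor apolipoprotein A-I and onto HDL. Both are classical LXR targets. The LXR and RXR dimer is known to bind direct repeats of the half-site AGGTCA with 4 bases between them, so the RefSeq promoters of the members (250 bases before the start, GRCm38.p6) were searched on both strands. Of the 10 genes, 6 had an entry, with 8 promoters in all, 3 of them for Apoe. The exact repeat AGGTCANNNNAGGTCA was in 0 of the 8 and in 0.0152% of 32851 promoters, and the looser AGGTNANNNNNGGTCA was in 0 of the 8 and in 0.0791% of all. With the first base left free, NGGTNANNNNNGGTCA, a form chosen after the matches were seen, occurred in the Abca1 promoter alone among the 8 and in 0.177% of all promoters. The half-site core GGTCA was in 3 of the 8, in Abca1, Apoc2 and Apoe, and in 35.2% of all. The promoters of Abca1 (chr4:53159896-53160145, minus strand) and of Apoe (chr7:19699189-19699438, minus strand) are printed to show both cases, with capitals marking the match to the free form in Abca1, which starts at base -67 and reads on the opposite strand of the promoter, and the lone core in Apoe, which starts at base -27.
Abca1: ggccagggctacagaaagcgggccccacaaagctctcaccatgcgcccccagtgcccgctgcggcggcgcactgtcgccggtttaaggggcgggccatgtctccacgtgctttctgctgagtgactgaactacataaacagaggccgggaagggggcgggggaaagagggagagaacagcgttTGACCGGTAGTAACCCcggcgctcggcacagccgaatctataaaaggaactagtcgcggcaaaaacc
Apoe: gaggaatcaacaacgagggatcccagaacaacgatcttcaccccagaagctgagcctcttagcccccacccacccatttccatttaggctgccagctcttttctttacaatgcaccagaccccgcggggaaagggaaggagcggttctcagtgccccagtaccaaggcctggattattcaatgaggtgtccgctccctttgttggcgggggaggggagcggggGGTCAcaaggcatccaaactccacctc
A match of letters is not a bound site, and the other promoters' lack of one holds for these windows alone.

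Abca1 (chr4:53030787-53159895, minus strand, as deposited) had 458, 479, 165 and 309 CPM in KO libraries 1 to 4, against 468, 778, 280 and 385 CPM in WT libraries 1 to 4. KO library 3 was the lowest and WT library 2 stood above the rest, and the other 6 libraries of both genotypes were interleaved. The log2 fold change was -0.44 ± 0.398 (adjusted p = 0.570, edgeR), and the gene missed the threshold with the block as well (-0.45 ± 0.142, adjusted p = 0.0687, edgeR). Abcg1 (chr17:31276649-31336962, plus strand, as deposited) had 201, 194, 68.3 and 142 CPM in KO libraries 1 to 4, against 226, 285, 133 and 179 CPM in WT libraries 1 to 4. The same libraries were at the extremes as for Abca1, and the groups overlapped. Abcg1 had a log2 fold change of -0.44 ± 0.353 (adjusted p = 0.536, edgeR), and was called lower with the block (-0.50 ± 0.137, adjusted p = 0.0490, edgeR). Counts of Abca1 per count of Abcg1 averaged 2.33 ± 0.133 in KO and 2.26 ± 0.314 in WT, and the ratios of the genotypes overlapped (2-sided exact permutation p = 0.657, adjusted p = 0.657 over the same 3 ratios). This ratio was higher in KO in 3 of 4 pairs.

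Mylip encodes the ubiquitin ligase, also called IDOL, that marks the LDL receptor for degradation, and is the LXR target through which uptake of LDL is limited (chr13:45543218-45565498, plus strand, as deposited). It had 102, 99.97, 48.6 and 85.4 CPM in KO libraries 1 to 4, against 147, 138, 99.999 and 88.8 CPM in WT libraries 1 to 4. WT libraries 1 and 2 were above all KO libraries, KO library 3 was the lowest, and the rest overlapped. The log2 fold change was -0.50 ± 0.258 (adjusted p = 0.492, edgeR), and the blocked value of -0.52 ± 0.149 also missed the threshold (adjusted p = 0.0549, edgeR).

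Lpl encodes lipoprotein lipase, which hydrolyses triglyceride in circulating lipoproteins (chr8:69333143-69360100, plus strand, as deposited). It had 1405, 1304, 344 and 724 CPM in KO libraries 1 to 4, against 2124, 1596, 650 and 1056 CPM in WT libraries 1 to 4. The libraries numbered 1 and 2 were the higher ones in both genotypes, library 3 was the lowest in each, and the groups overlapped broadly. Its highest library was 6.17 times its lowest, the widest span of the 9 genes tested. The log2 fold change was -0.52 ± 0.494 (adjusted p = 0.581, edgeR), and with the block Lpl was called lower (-0.59 ± 0.134, adjusted p = 0.0332, edgeR).

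Pltp encodes the phospholipid transfer protein, which moves phospholipid between lipoproteins (chr2:164681438-164699631, minus strand, as deposited). It had 567, 669, 252 and 626 CPM in KO libraries 1 to 4, against 868, 727, 514 and 631 CPM in WT libraries 1 to 4. KO library 3 stood apart below the rest, and the other KO libraries lay within the WT range. Pltp was called neither without the block (-0.37 ± 0.307, adjusted p = 0.543, edgeR) nor with it (-0.44 ± 0.177, adjusted p = 0.127, edgeR). In GENCODE M21, 19.3% of its exonic bases lie opposite exons of Ctsa, which had 368 to 801 CPM in KO and 557 to 984 CPM in WT. The strand setting of the counting is not given in the sources used here, so reads of the shared bases may belong to either gene.

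Scd2 encodes a stearoyl-CoA desaturase, which makes monounsaturated fatty acids (chr19:44282113-44295303, plus strand, as deposited). It had 311, 420, 798 and 435 CPM in KO libraries 1 to 4, against 174, 170, 382 and 353 CPM in WT libraries 1 to 4. KO library 3, the lowest for the 7 tested genes above, was the highest here, WT libraries 1 and 2 were the lowest, and KO library 1 lay within the WT range. Its log2 fold change of 0.86 ± 0.375 was the largest of the 9 (unadjusted p = 0.0480, adjusted p = 0.492, edgeR), and it was called higher with the block (0.88 ± 0.163, adjusted p = 0.0256, edgeR). Its paralogue Scd1 had 155, 175, 116 and 134 CPM in KO libraries 1 to 4, against 219, 225, 183 and 120 CPM in WT libraries 1 to 4. Counts of Scd2 per count of Scd1 were 2.003, 2.39, 6.85 and 3.25 in KO libraries 1 to 4, against 0.795, 0.758, 2.09 and 2.94 in WT libraries 1 to 4. The ratio was highest in KO library 3 and lowest in WT libraries 1 and 2, and the groups overlapped (2-sided exact permutation p = 0.143, adjusted p = 0.214 over the same 3 ratios). It was higher in KO in all 4 pairs (2-sided exact permutation within pairs p = 0.125, again the smallest possible).

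Lpcat3 encodes the enzyme that puts polyunsaturated acyl chains into phospholipids (chr6:124639990-124681381, plus strand, as deposited). It had 44.4, 57.0, 64.5 and 54.9 CPM in KO libraries 1 to 4, against 55.5, 49.0, 51.5 and 54.2 CPM in WT libraries 1 to 4. The WT libraries lay inside the KO range, and KO libraries 3 and 1 were its ends. At 0.072 ± 0.122 its log2 fold change was within the spread between libraries (adjusted p = 0.755, edgeR), and so was the blocked value of 0.062 ± 0.119 (adjusted p = 0.748, edgeR). In GENCODE M21, 10.2% of its exonic bases lie opposite exons of Emg1, which had 63.5 to 101 CPM in KO and 48.1 to 64.4 CPM in WT, so some reads may belong to either gene.

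**Figure D2:**
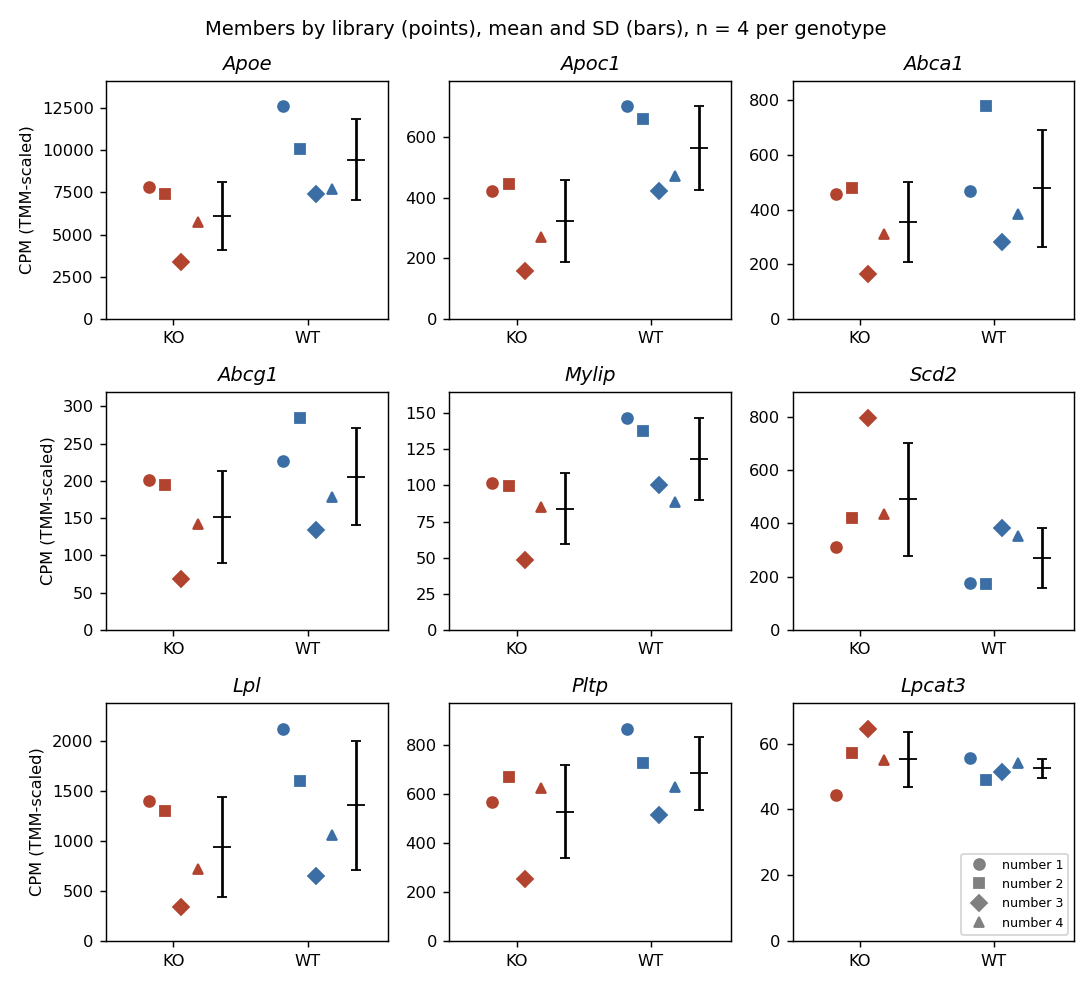
CPM of the 9 genes that passed the filter in each library (points, marker shape for the library number) with mean and SD (bars, n = 4 per genotype), KO to the left of WT. In 7 panels the KO diamond, library 3, is the lowest point, and in the panels of Scd2 and Lpcat3 it is the highest.

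Over the whole table, 0 of the 9 genes tested passed an adjusted p of 0.05 in edgeR, where 0.0063% of 15870 genes did, Vsig4 alone. At an unadjusted p of 0.05, Apoc1 was lower and Scd2 higher, 2 of 9, where 4.56% of all genes were lower and 4.23% higher. DESeq2, which called 0.416% of all genes, 0.189% higher and 0.227% lower, also called 0 of the 9. So did limma on log2(FPKM + 1), which called 1 of 15870 genes. With the library number as a block, 5 of 9 passed, with Scd2 higher and Apoe, Apoc1, Abcg1 and Lpl lower, where 14.0% of all genes passed, 8.98% higher and 5.01% lower. Leaving out the libraries of each number in turn changed these calls more than the values behind them. None of the 9 passed without the libraries numbered 1, 2 or 3, and 3 passed without those numbered 4, namely Apoc1, Mylip and Scd2, while all genes called numbered 210, 2, 1 and 2199 without libraries 1, 2, 3 and 4. Over these fits the blocked log2 fold change lay between -0.77 and -0.52 for Apoe, -0.998 and -0.71 for Apoc1, -0.62 and -0.35 for Abcg1, -0.70 and -0.48 for Lpl, and 0.72 and 1.06 for Scd2. Without the block, leaving out KO library 3 gave -0.21 for Abca1, -0.20 for Abcg1, -0.31 for Mylip, -0.25 for Lpl, -0.15 for Pltp and 0.53 for Scd2, each smaller by over 1.5 times than with all libraries. The same held without WT library 2 for Abca1, at -0.10, and Abcg1, at -0.25, and without WT library 1 for Lpl, at -0.22, and Pltp, at -0.24. The log2 fold change was below 0 for 7 of the 9 genes, and for 50.4% of all genes, with a median of -0.44 beside -0.0028 over all genes. Scaled to the Kupffer markers, which moved the median of all genes to 0.80, 1 of 9 was below 0 and the members' median was 0.19. With both scalings 7 of the 9, all but Scd2 and Lpcat3, lay below the median of all genes. The Kupffer scaling changes all genes of a library by the same factor, so this agreement is not an independent result. With the melanoma marker level as a covariate, 5 of 9 were below 0, and the median was -0.011 beside 0.013 over all genes. In this fit 0 of 9 passed (adjusted p at least 0.817, edgeR), where 0.0063% of all genes did. Scd2 then stood at 0.26 ± 0.167 (adjusted p = 0.833, edgeR), Apoe at -0.25 ± 0.231 and Apoc1 at -0.38 ± 0.227. In the 5 libraries of middle melanoma content, chosen after seeing the data, Scd2 was at 0.083 ± 0.17 (adjusted p = 0.972, edgeR). With the block and the melanoma covariate together 0 of 9 passed, where 0.0126% of all genes did. Here 7 of 9 were below 0, with a median of -0.49 beside -0.0088 over all genes. The hepatocyte marker level as a covariate also left 0 of 9 called, where 0.0126% of all genes were (adjusted p at least 0.0564, edgeR). With it 7 of 9 were below 0, and the median was -0.80 beside -0.013 over all genes.

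**Figure D3:**
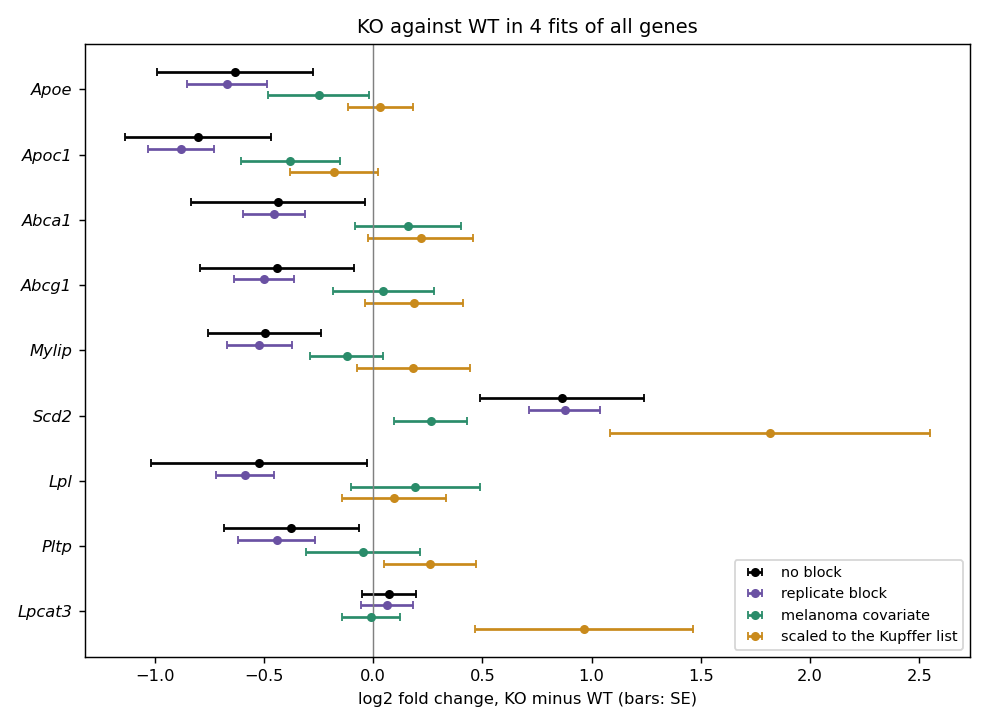
Log2 fold change, KO minus WT, with its SE for the 9 genes tested in 4 edgeR fits of all genes (no block, replicate block, melanoma covariate, scaled to the Kupffer markers). Abca1, Abcg1 and Lpl lie below 0 without a covariate and above 0 both with the melanoma covariate and when scaled to the Kupffer markers, a scaling that moves the median of all genes to 0.80. Scd2 is above 0 in each fit, at 0.26 with the melanoma covariate and 0.86 without.

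Within the 4 same-numbered pairs of libraries, Apoe, Apoc1, Abca1, Abcg1, Mylip, Lpl and Pltp were lower in KO in all 4, as were 19.6% of all genes tested. Scd2 was higher in KO in all 4 pairs, as were 23.9% of all genes, and Lpcat3 was higher in 3 of 4. Of the 9 genes, 0 had CPM ranges that did not overlap between the genotypes, where 5.56% of all genes had such ranges. KO library 3 held the lowest level of the 7 genes, as it did for 31.9% of all genes, and the highest level of Scd2 and Lpcat3, as it did for 36.1%.

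The 7 genes varied together across the 8 libraries. Pearson's r between their log2 CPM values ranged from 0.835 to 0.984, given as a description, since the values of a library share its depth and composition. Scd2 ran opposite to them, with r between -0.954 and -0.84, and Lpcat3 had r between -0.665 and -0.488 with the 7. Among 12698 other genes with a mean of at least 1 FPKM, the closest to Apoe was Igf1 (r = 0.998), to Apoc1 Tmem221 (r = 0.997), to Abca1 Kmt5b (r = 0.989) and to Abcg1 Mknk1 (r = 0.996). Slc39a8 was the closest to Mylip (r = 0.994), Sh3bp5 to Lpl (r = 0.997), Pigz to Pltp (r = 0.996), Acat2 to Scd2 (r = 0.996) and Gm12251 to Lpcat3 (r = 0.962), all over 8 libraries.

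These levels followed the melanoma marker level of the library, taken as the mean log2 CPM of the 10 markers. Apoe had r = -0.865 over the 8 libraries (exact permutation p = 0.00427, adjusted p = 0.0064 over 9 relations) and Spearman's rho = -0.905 (exact permutation p = 0.00456, adjusted p = 0.00685). Scd2 had r = 0.959 (exact permutation p = 0.000645, adjusted p = 0.00357) and rho = 0.929 (exact permutation p = 0.00223, adjusted p = 0.0067). The other 6 of the 7 genes had r between -0.888 for Mylip and -0.735 for Pltp (adjusted exact permutation p 0.00357 to 0.0296) and rho between -0.976 for Abcg1 and -0.786 for Pltp (adjusted exact permutation p 0.00357 to 0.0314). Lpcat3 had r = 0.466 and rho = 0.476 (exact permutation p = 0.249 and 0.243, both unchanged by adjustment). WT libraries 1 and 2 were farthest from the median melanoma level, and without them r was -0.883 for Apoe, 0.888 for Scd2, between -0.962 and -0.769 for the other 6 and 0.828 for Lpcat3. Within each genotype there were 4 libraries, too few for a value of its own. The 8 libraries were permuted across genotypes, and the melanoma level was 6.83 to 9.14 in KO and 4.32 to 7.96 in WT. These p-values therefore do not separate melanoma content from genotype. The share of all genes with such a relation is not given here. Whether the relation is particular to these genes was not tested.

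**Figure D4:**
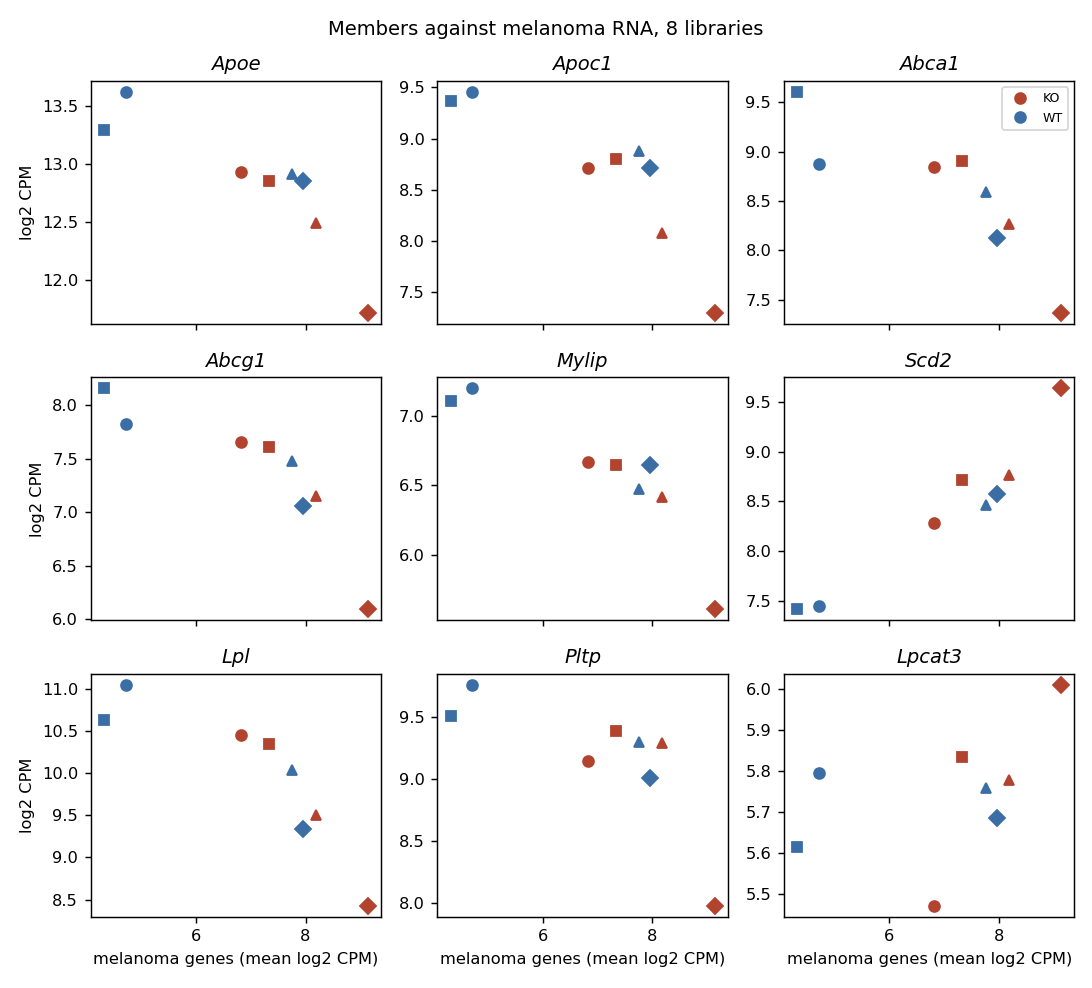
Log2 CPM of the 9 genes tested in each library against the melanoma marker level (mean log2 CPM of 10 markers), with KO and WT libraries in separate colours. Apoe falls and Scd2 climbs along the axis, with WT libraries 1 and 2 at the low end and KO library 3 at the high end.

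Set against the Kupffer markers of the same library, the levels of the 7 genes varied less between libraries than in CPM, and those of Scd2 and Lpcat3 varied more. Per 1000 counts of the 12 Kupffer markers, Apoe had 339, 327, 447 and 328 counts in KO libraries 1 to 4, against 372, 301, 385 and 352 counts in WT libraries 1 to 4. Here KO library 3 was the highest, and the other KO libraries lay within the WT range. Apoc1 averaged 18.5 ± 2.35 counts in KO and 20.9 ± 0.912 counts in WT on this scale, and Abca1 20.1 ± 1.87 counts in KO and 17.3 ± 4.30 counts in WT. The span from the lowest to the highest library was 1.36 to 1.86 times for the 7 genes, where in CPM it was 3.02 to 6.17 times. For Lpcat3 it was 5.84 times, where in CPM it was 1.45 times. For Scd2 it was 20.8 times, where in CPM it was 4.68 times, with 13.4, 18.5, 106 and 24.8 counts in KO libraries 1 to 4, against 5.14, 5.09, 19.8 and 16.1 counts in WT libraries 1 to 4. Scd2 was again highest in KO library 3, with KO libraries 1 and 2 inside the WT range. Cd5l, among the Kupffer markers, is itself an LXR target, so this scale is not independent of the pathway.

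**Figure D5:**
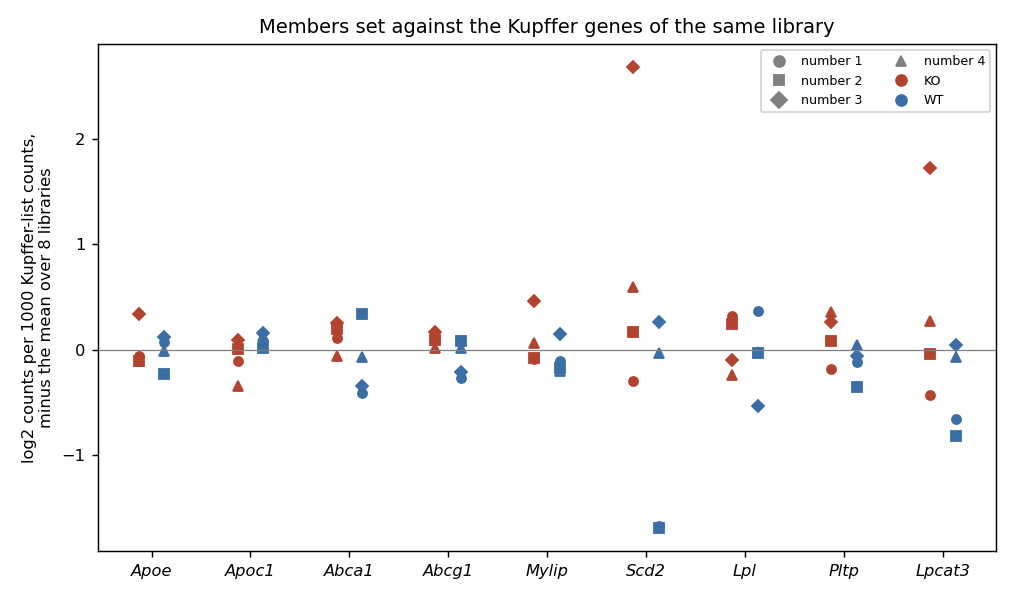
Log2 counts of each gene per 1000 counts of the Kupffer markers in each library (points), minus the gene's mean over the 8 libraries, with KO to the left of WT. Apoe and the other 6 genes lie within 1.86 times from the lowest to the highest library, while Scd2 spans 20.8 times with KO library 3 at the top.

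The rest of the pathway was read from 9 lists, whose 89 tested genes outside the members gave 0 calls in edgeR, 0 in DESeq2 and 0 in limma, and 5 at an unadjusted p under 0.05. Of all genes, 0.0063% were called in edgeR and 0.416% in DESeq2. At that unadjusted p, 4.23% of all genes were higher and 4.56% lower. For comparison with the lists below, 50.4% of all genes had a log2 fold change below 0, with a median of -0.0028. With the library number as a block, 17 of the 89 were called, 19.1%, beside 14.0% of all genes, and 0 with the block and the melanoma covariate together. Values for named genes are from edgeR, and blocked calls among them share the limits given for the members.

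Of 11 LXR receptors, partners and co-regulators, 9 had a log2 fold change below 0, with a median of -0.14. Nr1h3, which encodes LXRα, had 360, 344, 130 and 300 CPM in KO libraries 1 to 4, against 372, 367, 248 and 332 CPM in WT libraries 1 to 4. Its KO libraries other than the third lay within the WT range (-0.22 ± 0.302, adjusted p = 0.695). Rxra, the gene of the RXR partner, averaged 301.5 ± 104 CPM in KO and 426 ± 132 CPM in WT. It was the only gene of the list called with the block, lower in KO (-0.53 ± 0.137, adjusted p = 0.0439). The co-regulator gene Nrip1 averaged 85.8 ± 32.5 CPM in KO and 114 ± 42.1 CPM in WT (-0.41 ± 0.348, adjusted p = 0.550).

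Of 16 other LXR targets, 10 were below 0, with a median of -0.26, and the blocked fit called 3 higher and 3 lower. The higher ones were the fatty acid synthesis genes Fasn, Elovl6 and Fads2. Fasn had 92.9, 99.8, 255 and 153 CPM in KO libraries 1 to 4, against 45.0, 42.4, 111 and 122 CPM in WT libraries 1 to 4, highest in KO library 3 and lowest in WT libraries 1 and 2 as for Scd2 (blocked 0.95 ± 0.157, adjusted p = 0.0254). Elovl6 averaged 26.2 ± 15.7 CPM in KO and 13.2 ± 5.92 CPM in WT (blocked 0.94 ± 0.193, adjusted p = 0.0284). The lower ones were Arl4c, Tgm2 and Smpdl3a, the last of which averaged 452 ± 161 CPM in KO and 658 ± 181 CPM in WT (blocked -0.59 ± 0.142, adjusted p = 0.0371). Cd5l, the most abundant of the list, averaged 4473 ± 1906 CPM in KO and 6785 ± 2183 CPM in WT, values that missed the threshold (blocked -0.68 ± 0.195, adjusted p = 0.0553).

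The 20 tested targets of SREBP2, the factor that drives cholesterol synthesis when sterol is low, had 6 values below 0 and a median of 0.15. The blocked fit called Sqle, the squalene epoxidase gene, higher, at 34.5 ± 15.3 CPM in KO and 22.5 ± 10.6 CPM in WT (0.64 ± 0.116, adjusted p = 0.0254). Mvd, a mevalonate pathway gene, ran the other way, with 21.1, 22.0, 14.4 and 18.9 CPM in KO libraries 1 to 4, against 23.1, 28.1, 22.0 and 26.4 CPM in WT libraries 1 to 4. Its genotypes did not overlap, as in 5.56% of all genes, though KO library 2 and WT library 3 nearly met (-0.38 ± 0.16, unadjusted p = 0.0420, adjusted p = 0.492, blocked adjusted p = 0.0631). Fdps, which acts later in the same pathway, averaged 22.7 ± 9.003 CPM in KO and 16.0 ± 3.43 CPM in WT (0.50 ± 0.271, adjusted p = 0.492). Insig1, a sterol-regulated brake on this pathway, averaged 61.3 ± 11.5 CPM in KO and 60.8 ± 9.65 CPM in WT, a difference within the spread (0.013 ± 0.161, adjusted p = 0.971). Of 3 oxysterol enzymes, 2 were below 0 with a median of -0.32, and 0 were called with the block. Among them Cyp27a1, the sterol 27-hydroxylase gene, averaged 95.4 ± 25.4 CPM in KO and 119 ± 9.57 CPM in WT (-0.32 ± 0.197, adjusted p = 0.492). Hsd3b7, of bile acid synthesis, averaged 2.29 ± 1.11 CPM in KO and 3.25 ± 1.45 CPM in WT (-0.50 ± 0.439, adjusted p = 0.560).

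Of 8 lipoprotein and lipid receptors, 5 were below 0, with a median of -0.26, and the blocked fit called Lrp8 and Sort1 higher and Msr1 lower. Msr1, the class A scavenger receptor gene, had 662, 647, 253 and 476 CPM in KO libraries 1 to 4, against 1103, 992, 576 and 796 CPM in WT libraries 1 to 4. KO library 3 was again lowest, and KO libraries 1 and 2 exceeded WT library 3 (blocked -0.82 ± 0.127, adjusted p = 0.0254). Sort1, the sortilin gene, had 54.4, 64.7, 207 and 115 CPM in KO libraries 1 to 4, against 14.9, 14.9, 99.6 and 92.8 CPM in WT libraries 1 to 4. Cd36 averaged 247.5 ± 78.0 CPM in KO and 244 ± 70.4 CPM in WT, a difference within the spread (0.019 ± 0.291, adjusted p = 0.976).

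Of 11 genes of intracellular sterol handling, 9 were below 0, with a median of -0.14, and Lipa, Npc2 and Soat1 were lower in the blocked fit. Lipa encodes lysosomal acid lipase, Npc2 the sterol carrier of the lysosome and Soat1 the enzyme that esterifies cholesterol. Npc2 averaged 580 ± 143 CPM in KO and 803 ± 216 CPM in WT (blocked -0.47 ± 0.12, adjusted p = 0.0425). For Lipa the means were 430.1 ± 150 CPM in KO and 641 ± 291 CPM in WT (blocked -0.54 ± 0.146, adjusted p = 0.0486). Of 7 lipase partners and inhibitors, 6 were below 0 with a median of -0.70, and Gpihbp1, the endothelial anchor of lipoprotein lipase, was called lower with the block at 1.72 ± 1.51 CPM in KO and 4.90 ± 4.33 CPM in WT. The sum of 10 sinusoidal endothelial markers was 203 to 601 CPM in KO and 455 to 836 CPM in WT. Its part in the Gpihbp1 value was not tested. Apoa5, on this list and on that of apolipoproteins, averaged 4.67 ± 4.16 CPM in KO and 7.596 ± 8.11 CPM in WT (-0.70 ± 0.911, adjusted p = 0.678).

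Of 6 paralogues of Lpcat3 and Scd2, 3 were below 0 with a median of -0.038, and the blocked fit called Lpcat2 lower and Mboat2 higher. Mboat2 had 8.46, 8.32, 27.2 and 15.5 CPM in KO libraries 1 to 4, against 1.14, 0.955, 12.6 and 8.42 CPM in WT libraries 1 to 4. Like Scd2, it was highest in KO library 3 and lowest in WT libraries 1 and 2. Lpcat2 averaged 145 ± 33.0 CPM in KO and 193 ± 56.0 CPM in WT (blocked -0.39 ± 0.0921, adjusted p = 0.0348), and Mboat1, at 7.85 ± 3.59 CPM in KO and 4.63 ± 3.16 CPM in WT, missed the threshold (blocked adjusted p = 0.0502). Of 11 other apolipoprotein genes, 10 were below 0 with a median of -0.68, and 0 were called with the block. Apoa1, which hepatocytes make, averaged 44.0 ± 32.7 CPM in KO and 45.2 ± 37.9 CPM in WT (-0.039 ± 0.712, adjusted p = 0.981). Apob averaged 15.5 ± 7.93 CPM in KO and 27.1 ± 22.2 CPM in WT. The receptor gene Apobr was at 112 ± 37.9 CPM in KO, against 147 ± 20.3 CPM in WT, while Apoc3 had 2.96 ± 1.45 CPM in KO and 5.27 ± 4.44 CPM in WT. With the hepatocyte marker level as a covariate, Apob moved from -0.81 to -0.0036 ± 0.158 and Apoc3 from -0.83 to 0.026 ± 0.208. Apoa1 then stood at 0.85 ± 0.172, and Apobr moved from -0.40 to -0.62 ± 0.227. How much of each level was hepatocyte RNA was not measured. Scaled to the Kupffer markers, the medians of all 9 lists were above 0, between 0.19 and 1.07, beside 0.80 over all genes.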

How the data were processed

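Per the file headers, the deposited columns hold raw counts for each gene in 8 libraries, the authors' FPKM, and, as other numbers, exonic sizes and positions. HTSeq 0.6.1 and mm10 are named in the submitters' processing notes. The sources used here do not give the aligner or strand setting. FPKM matched counts over size and column total within 0.015 in 100% of genes. Of 52073 gene identifiers shared with GENCODE M21, 1472 had its position, so positions are given as deposited. Columns K were read as KO and C as the WT control.

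After filterByExpr (15870 genes) and TMM scaling, edgeR 4.0.16 (R 4.3.3) compared KO with WT in its 2-sided quasi-likelihood F test, with Benjamini-Hochberg adjustment over all genes and a threshold of 0.05. The biological coefficient of variation was 33.3%. DESeq2 1.42.0 (on the counts), limma 3.58.1 on log2(FPKM + 1) or log2(FPKM + 0.1), a replicate block, covariates and other scalings were alternatives. Fits were tested on simulated data. Deviations of same-numbered libraries from their group means correlated at 0.561, 0.544, 0.660 and 0.290; this pairing is read from the data, since the labels do not say what a number shares. No library pair within a genotype agreed within sampling noise (chi-square per degree of freedom at least 10.7). The members and lists were chosen with earlier results of these data known. The text names all members, Vsig4, each member's closest gene, and from each list genes called or, with 0 calls, the 2 of highest mean FPKM and the 2 of largest change at a mean of at least 1 FPKM; genes called with the block were named in addition. A gene that this rule picks is not reported here.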

Additional observations from a re-analysis of the deposited data

Results flagged for a closer look

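Of 82 sets of 4 libraries examined for a library far from the other 3, 5 held one, where chance gives about 1 in 20. In KO, library 3 stood apart with 78.6 CPM of Insig1, where the other KO libraries had 54.5 to 56.6 CPM. It also stood apart with 36.1 CPM of Fdps, a cholesterol synthesis gene, where the other KO libraries had 16.8 to 19.1 CPM. In WT, library 3 held 11.9 CPM of Apoc3 and 60.1 CPM of Apob, both apolipoprotein genes of hepatocytes, where the other WT libraries had 2.64 to 3.79 CPM and 13.4 to 18.9 CPM. WT library 2 had 2.73 counts of Abca1 per count of Abcg1, where the other WT libraries had 2.07 to 2.16.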

How the results depend on the processing

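Called genes in the whole table numbered 1 in the fit without a block. They were 2 without the filter on low counts, 66 in DESeq2, 2220 with the replicate block, 2 with the block and melanoma covariate and 2 with the hepatocyte covariate. Leaving out each library gave 1 to 2, and leaving out each number under the block 1 to 2199 (210 without replicate 1, 2 without replicate 2). Members called were 0, but 5 with the block and 0 to 3 under the block with each number left out. Among the 9 tested members' values under alternatives, 189 kept direction and side of the threshold, 8 passed it anew and 19 turned direction. Scaled to the Kupffer markers, which moved the median of all genes to 0.80, above these 6 values, Apoe turned to 0.0325, Abca1 to 0.22, Abcg1 to 0.19, Mylip to 0.18, Lpl to 0.0931 and Pltp to 0.26. With the melanoma covariate Abca1 turned to 0.16, Abcg1 to 0.0454, Lpl to 0.19 and Lpcat3 to -0.0112. In 5 libraries of middle melanoma content, chosen after seeing the data, Abca1 was 0.32, Abcg1 0.20, Mylip 0.0218, Lpl 0.43, Pltp 0.12 and Lpcat3 -0.0168. Lpcat3 was -0.013 without KO replicate 3, -0.0051 under the block without replicate 2 and -0.0301 without replicate 3. The causes were not tested. Values of single list genes moved by less than the spread between replicates in 651 cases and by more in 45, and the 3 ratios kept direction and side of the threshold in all 30. The ratios' values under the replicate block are among these. Of the members, Apoc2 alone had too few counts to be tested.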
